A study of Mus musculus with 7 samples.

Results

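The acyl-CoA thioesterase (Acot) genes were examined in livers of Tet1 knockout (TET1 KO) and wild-type (WT) mice fed a high-fat diet (HFD). The 9 genes Acot1, Acot2, Acot3, Acot4, Acot7, Acot8, Acot9, Acot12 and Acot13 were taken by name and joined across libraries by Ensembl gene ID, out of 51426 genes in the count tables. The rule for membership is the gene name and uses no measured value, although the family was picked with earlier results of these data known.

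Acyl-CoA thioesterases cleave the thioester bond of an activated fatty acid and release the free acid and coenzyme A. Acyl-CoA synthetases catalyse the opposite step, so both enzyme groups act on the pool of acyl-CoA that enters oxidation, esterification and signalling. The family has a pair of unrelated protein folds. The type I enzymes, Acot1 to Acot6 in the mouse, are α/β-hydrolases encoded by a cluster of closely related genes, and several of these genes are known targets of the fasting-responsive receptor PPARα in liver. The type II enzymes, including Acot7, Acot8, Acot9, Acot12 and Acot13, have the hotdog fold. Members work in the cytosol, the mitochondria or the peroxisome.

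Poly(A)-selected or rRNA-depleted RNA was sequenced from whole liver of 3 WT and 4 TET1 KO male mice, all given as strain C57BL/6J. TET1 is a dioxygenase that oxidizes 5-methylcytosine in DNA. The TET1 KO livers carry the genotype label TET-1-TKO and the protocol calls the animals whole-body knockouts, so the knockout was not limited to the liver. Both groups were fed the HFD for 16 weeks, from 8 weeks of age, and no liver from a mouse on another diet was in the series. By the study's text the sequenced livers came from the line with a germline knockout allele and its wild type, not from its second whole-body line, in which a β-actin Cre deletes a floxed allele. The labels name no line. The study lists the germline line under a stock name of mixed strain origin. Its words on a C57BL/6J origin or backcross cover only the floxed and Cre lines. Whether the strain background differed between the groups was not tested. Nothing in the labels ties a library to a named animal beyond its replicate number, so the p-values measure the spread between these 7 samples.

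The libraries held 15005277 to 22746138 counts, and 14754 genes passed the filter on low counts. The quasi-likelihood test of edgeR called 298 genes at an adjusted p under 0.05, or 2.02% of the genes tested, with 129 higher and 169 lower in TET1 KO livers. Scaling by library size alone gave 107 higher and 312 lower. Tet1 itself had 1 to 4 counts in every library (exact two-sided permutation test, p = 1), which gives no check of the genotype in this tissue. Hepatocyte markers summed to 76354 to 94552 CPM (counts scaled to a library of fixed size) in WT and 88634 to 98606 CPM in TET1 KO livers. The 6 cholangiocyte markers, of which 5 were tested, summed to 29.8 to 38.0 CPM in WT and 46.3 to 68.5 CPM in TET1 KO livers, without overlap. EdgeR called 0 of them, with 4 higher at an unadjusted p under 0.05. DESeq2 called 3 higher, beside 4.89% of the genes it tested, namely Epcam, Sox9 and Spp1 (DESeq2 adjusted p = 0.0344, 0.00248 and 0.0471). None of the 6 markers was at 0 in all livers, and their part in the results below was not tested. The summed markers of Kupffer cells, endothelial cells, stellate cells, T and NK cells, B cells and adipocytes overlapped between the groups. Of the 8 stellate cell markers 7 were fitted lower in TET1 KO livers, beside 48.9% of all genes tested. Rgs5 was called lower (log2 fold change -0.67, edgeR adjusted p = 0.0460), and DESeq2 called Rgs5, Col1a1 and Col3a1 lower, beside 4.99% of the genes it tested. DESeq2 also called the endothelial marker Lyve1 lower (DESeq2 adjusted p = 0.0140) and the T cell marker Cd4 and the hepatocyte markers Apoa1 and Apoc3 higher (DESeq2 adjusted p = 0.0468, 2.34e-06 and 0.0241).

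Reads of several members cannot be placed with certainty, because the genes resemble each other. In the GRCm38.p6 annotation of RefSeq, Acot2, Acot1, Acot4 and Acot3 follow each other on the plus strand of chromosome 12, with Acot5 and Acot6 behind them. Acot2 (ENSMUSG00000021226) spans chr12:83987861-83993877, Acot1 (ENSMUSG00000072949) chr12:84009502-84017670, Acot4 (ENSMUSG00000052392) chr12:84037254-84044723 and Acot3 (ENSMUSG00000021228) chr12:84052144-84060400. The coding sequences of Acot1 and Acot2 were 85.5% identical over their alignment, gaps included, in the transcripts of GENCODE M1. Of all windows of 100 bases in Acot1 transcripts, 32.5% occurred unchanged in another protein-coding gene, 24.5% in Acot2. For Acot2 this share was 17.1%, for Acot3 5.63% and for Acot4 0.988%. The longest run without a mismatch between Acot1 and Acot2 had 273 bases, at coding positions 887 to 1159 of Acot1 and 1010 to 1282 of Acot2. Its first 150 bases are shown because a read inside them fits both genes equally well.
Acot1 and Acot2, shared run: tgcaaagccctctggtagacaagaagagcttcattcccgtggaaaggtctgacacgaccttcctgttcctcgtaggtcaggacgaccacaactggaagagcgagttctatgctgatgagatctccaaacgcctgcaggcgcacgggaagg
In contrast, the 60 bases with the most differences between the same 2 coding sequences follow, with the 13 differing bases in capitals. They start at coding position 823 of Acot1 and 946 of Acot2.
Acot1: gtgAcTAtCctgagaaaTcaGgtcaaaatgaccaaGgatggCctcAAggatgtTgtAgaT
Acot2: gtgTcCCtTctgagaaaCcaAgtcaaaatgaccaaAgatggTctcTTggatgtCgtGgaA
At 100 bases Acot3 shared most with Acot1, with 3.96% of its windows, and their longest common run had 203 bases. At 50 bases it shared most with Acot5, with 7.91% of its windows, and Acot5 had 0 counts in all 7 libraries, which allows up to 3 counts in each. Acot9 (ENSMUSG00000025287) shared 20.2% of its windows of 50 bases, all with the intronless gene Acot10, and 0.968% of its windows of 100 bases. Acot10 had no more than 3 counts in a library. No window of 50 bases or more of Acot7, Acot8, Acot12 or Acot13 occurred in a transcript of another protein-coding gene. The search covered the sense strand of such transcripts only, not noncoding genes.

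**Figure D1:**
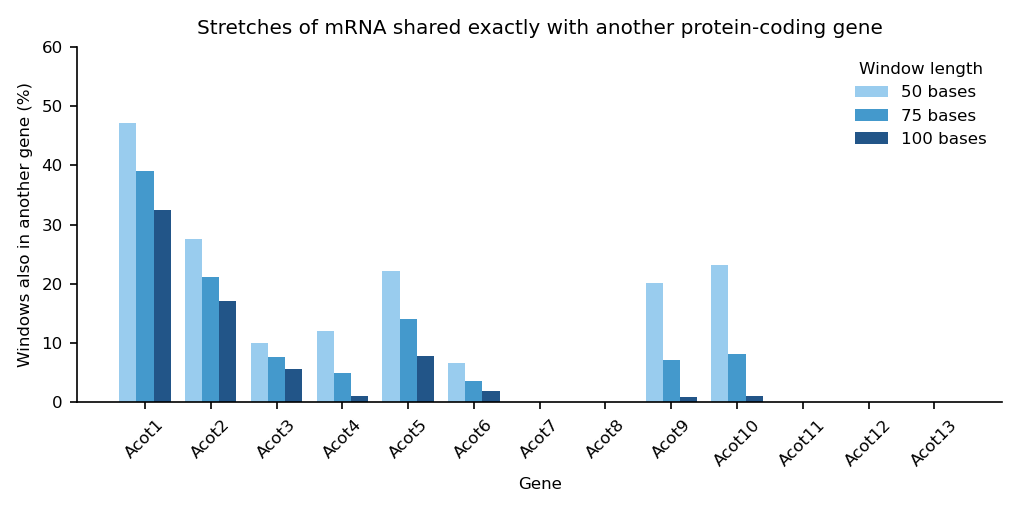
Share of windows of 50, 75 or 100 bases in the transcripts of each Acot gene (x axis) that occur unchanged in a transcript of another protein-coding gene (y axis, percent), from GENCODE M1 sequences. Acot1 and Acot2 have the highest shares at 100 bases, 32.5% and 17.1%, while Acot7, Acot8, Acot11, Acot12 and Acot13 are at 0.

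Across the 9 members, all of which passed the filter, Acot3 was called lower in TET1 KO livers and no member was called higher. That is 1 of 9 members lower at an edgeR adjusted p under 0.05, beside 1.15% of all genes tested. The fitted level was lower in TET1 KO livers for 8 members and higher for Acot8, while 48.9% of all genes tested were fitted lower. The median log2 fold change of the members was -0.69, against 0.01 over all genes tested. At an unadjusted p under 0.05, 4 members were lower (Acot2, Acot3, Acot4 and Acot9) and 0 higher, beside 12.7% of all genes tested that were lower. DESeq2 called the same 4 members lower at an adjusted p under 0.05, beside 4.99% of the genes it tested. In Acot9 alone all TET1 KO values were below all WT values, and 1 of 9 is near the 10.8% of all genes tested that had this order. In whole liver, fewer cells of a type and less RNA per cell cannot be told apart.

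**Figure D2:**
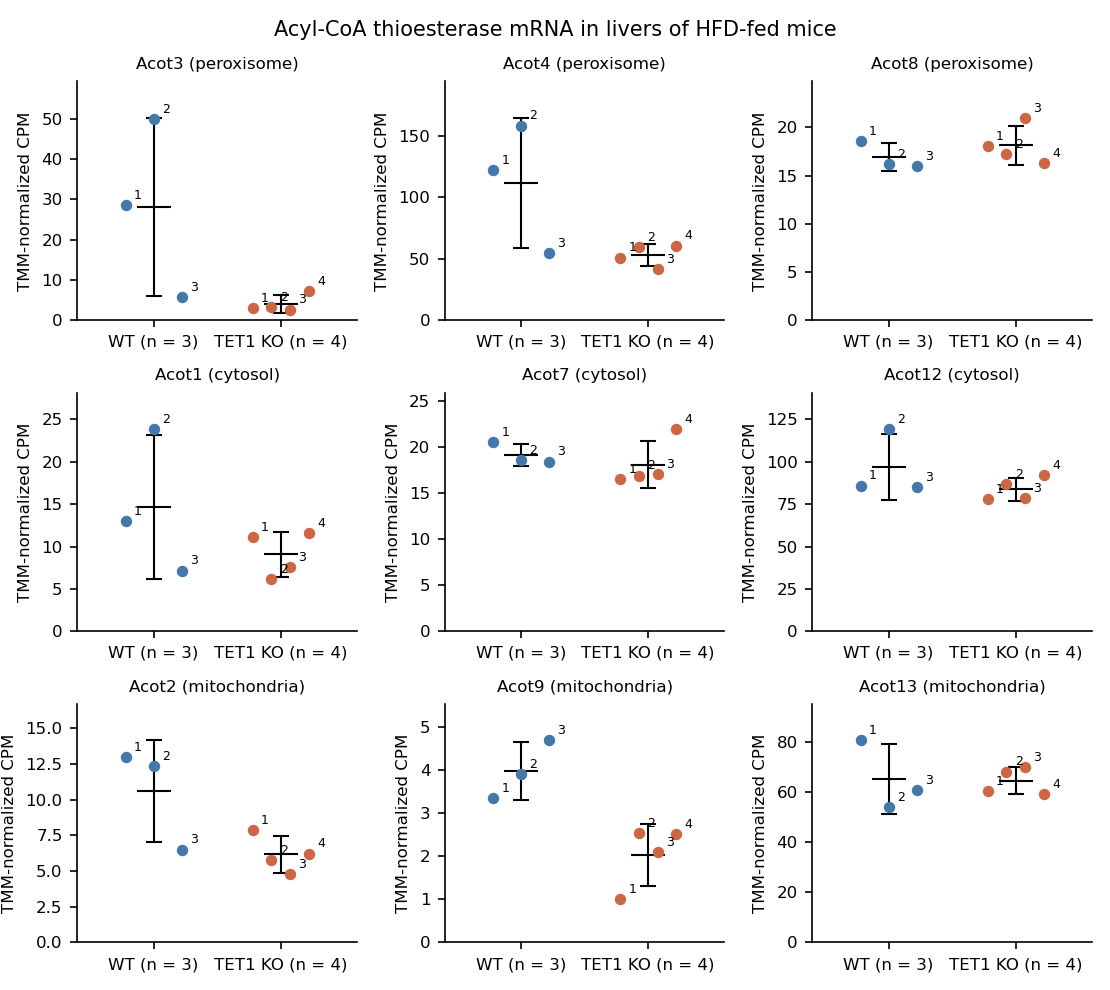
TMM-normalized CPM (y axis) of the 9 members in each WT and TET1 KO liver (x axis), with points numbered by replicate and black bars for the mean ± SD (n = 3 and 4). WT 1 and WT 2 are far above the TET1 KO livers for Acot3 (28.6 and 49.9 CPM) and Acot4 (122 and 158 CPM), while WT 3 lies among them.

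Among the peroxisomal members, Acot3 had the largest difference of the family. It encodes a type I thioesterase that acts on long-chain acyl-CoA inside peroxisomes. Acot3 was at 28.6, 49.9 and 5.85 CPM in WT 1, 2 and 3 and at 3.01, 3.24, 2.66 and 7.33 CPM in TET1 KO 1 to 4. The livers WT 1 and WT 2 stood well above all others, whereas WT 3 lay between TET1 KO 2 and TET1 KO 4, so that the groups overlapped. The means were 28.1 ± 22.03 CPM (SD, n = 3) in WT and 4.06 ± 2.19 CPM (SD, n = 4) in TET1 KO livers. On the log2 scale TET1 KO livers were at -2.78 relative to WT (standard error 0.57, 95% interval -4.04 to -1.52, edgeR adjusted p = 0.0382), and DESeq2 gave an adjusted p of 0.00849. With robust dispersions the call was lost at the same fold (edgeR adjusted p = 0.0868). Without WT 2 the difference was -2.08 and the edgeR adjusted p was 0.209, and without WT 3 they were -3.28 and 0.00279. The call was kept in 2 of the 7 fits that left out 1 liver, those without WT 3 and without TET1 KO 4. Without WT 1 the edgeR adjusted p was 0.0549, and without TET1 KO 1, 2 or 3 it was 0.0789, 0.0952 or 0.111.

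Acot4, a peroxisomal type I enzyme known for hydrolysing succinyl-CoA and other dicarboxylyl-CoAs, had the highest level of the type I genes in every liver. It was at 122, 158 and 54.5 CPM in WT 1, 2 and 3 and at 51.1, 59.9, 41.6 and 60.7 CPM in TET1 KO 1 to 4. The pattern had the shape seen for Acot3, with WT 1 and WT 2 high and WT 3 inside the TET1 KO range. The fitted log2 difference was -1.07 (standard error 0.29, 95% interval -1.70 to -0.43), with an edgeR adjusted p of 0.0713 and a DESeq2 adjusted p of 0.00772. Without WT 3 it was -1.42, with an edgeR adjusted p of 0.00569, and without WT 2 it was -0.74, with an edgeR adjusted p of 0.326. By the annotation, 24.5% of the exon bases of Acot4 and 12% of those of Acot3 lie opposite the antisense gene 4732463B04Rik, which had 0 to 11 counts.

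Within each liver, Acot3 was a smaller fraction of Acot4 in most TET1 KO livers than in WT livers, on the scale of CPM per kilobase of exons. The ratio was 0.226, 0.304 and 0.104 in WT 1, 2 and 3. It was 0.0567, 0.0522, 0.0617 and 0.116 in TET1 KO 1 to 4. Only TET1 KO 4 exceeded a WT liver, WT 3. These ratios are free of the library scaling, and the difference between the groups was not tested.

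Acot8 (ENSMUSG00000017307, chr2:164792768-164820219, minus strand) encodes the broad-specificity peroxisomal thioesterase, which also acts on bile acid CoA esters. It was at 18.6, 16.2 and 16.0 CPM in WT 1, 2 and 3 and at 18.03, 17.2, 21.0 and 16.3 CPM in TET1 KO 1 to 4. TET1 KO 3 lay above all WT livers and the other TET1 KO livers lay within the WT range. The fitted log2 difference was 0.10 (standard error 0.14, 95% interval -0.21 to 0.41, edgeR adjusted p = 0.676). Exons of Snx21 on the other strand cover 12.2% of its exon bases, and Snx21 had 79 to 184 counts.

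The 250 bases before the transcript start of Acot3 and Acot4 are shown because these neighbours had the largest differences in the peroxisomal group, and because several of the type I genes are known PPARα targets. Both are from RefSeq promoter windows of GRCm38.p6, plus strand, chr12:84051894-84052143 for the first Acot3 window and chr12:84038129-84038378 for Acot4, whose window belongs to a transcript that starts inside the gene. Capitals mark a match to AGGTCANAGGTCA, the direct repeat bound by PPARα with RXR, with at most 2 mismatches outside the N.
Acot3: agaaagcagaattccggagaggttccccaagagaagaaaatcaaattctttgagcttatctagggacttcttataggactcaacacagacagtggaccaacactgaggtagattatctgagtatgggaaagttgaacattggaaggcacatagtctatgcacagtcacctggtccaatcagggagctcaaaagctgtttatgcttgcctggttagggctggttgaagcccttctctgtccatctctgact
Acot4: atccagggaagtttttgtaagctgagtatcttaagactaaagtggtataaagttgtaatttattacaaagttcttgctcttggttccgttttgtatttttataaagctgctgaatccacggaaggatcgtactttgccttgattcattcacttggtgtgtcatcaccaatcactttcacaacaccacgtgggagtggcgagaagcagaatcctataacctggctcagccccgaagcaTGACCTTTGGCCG
The search covered both strands of the whole windows of 300 bases. It found 1 match in Acot4, CGGCCAAAGGTCA on the minus strand at bases -13 to -1, with 2 mismatches, and 1 in Acot12, AGGTGAGAGGTCA on the minus strand at bases -110 to -98, with 1 mismatch. The windows of Acot7, Acot8 and Acot12 also belong to transcripts that start inside the annotated genes, and the Acot12 match lies within the gene. For Acot4, Acot7 and Acot8 the bases before the annotated gene were not searched. Of all 32851 promoter windows of this length, 3.86% held such a match. The half-site AGGTCA, which every exact match contains, was present without a mismatch in Acot3, Acot4 and Acot12, 3 of the 8 members with a window, and in 16.3% of all windows. Despite their similar coding sequences, the promoter windows of Acot1 to Acot4 were 43.3% to 47.5% identical in pairs. A match is only a stretch of letters, and binding was not measured.

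**Figure D3:**
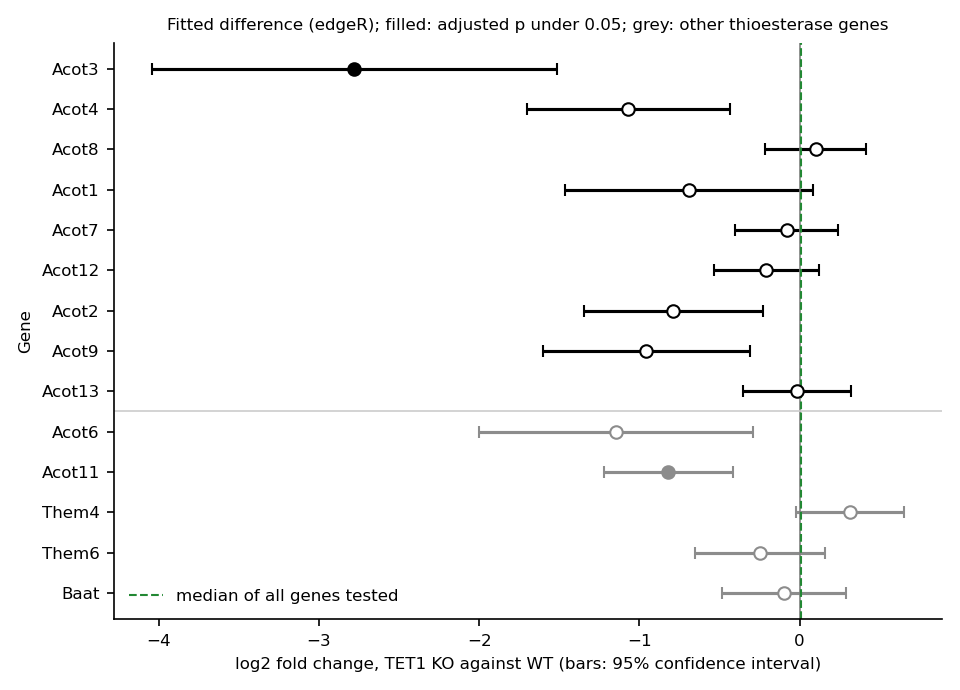
Log2 fold change of TET1 KO against WT (x axis) with its 95% confidence interval for the 9 members (black) and the other thioesterase genes that were tested (grey), by edgeR, with the dashed line at the median of all genes tested (0.01). Acot3 (-2.78) and Acot11 (-0.82) are filled, as their adjusted p was under 0.05, and the intervals of Acot2, Acot4, Acot6 and Acot9 also lie below 0.

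Among the mitochondrial members, Acot2 and Acot9 had lower values in TET1 KO livers without an edgeR call. Acot2, the type I enzyme of the mitochondrial matrix, was at 12.99, 12.4 and 6.51 CPM in WT 1, 2 and 3 and at 7.89, 5.78, 4.81 and 6.22 CPM in TET1 KO 1 to 4. WT 3 was again the low WT liver, and TET1 KO 1 exceeded it. On the log2 scale the fitted difference was -0.79 (standard error 0.25, 95% interval -1.34 to -0.23), with an edgeR adjusted p of 0.0963 and a DESeq2 adjusted p of 0.0446. Without WT 3 it was -1.06 (edgeR adjusted p = 0.0406), and without WT 1 or WT 2 it was -0.63 or -0.67 (edgeR adjusted p = 0.175 or 0.358). In the 7 fits without 1 liver each, only the one without WT 3 passed.

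Acot9, a mitochondrial thioesterase of the hotdog fold on the plus strand of chromosome X (chrX:155262443-155297654), was the least abundant member, with 16 to 94 counts per library. Its levels were 3.35, 3.90 and 4.69 CPM in WT 1, 2 and 3 and 1.00, 2.54, 2.10 and 2.51 CPM in TET1 KO 1 to 4. Here WT 3 was the highest liver, as in no other member, and the groups did not overlap. The fitted change was -0.96 on the log2 scale (standard error 0.29, 95% interval -1.60 to -0.31), with an edgeR adjusted p of 0.0897 and a DESeq2 adjusted p of 0.0390. In the 7 fits without 1 liver each it stayed between -1.08 and -0.74, with edgeR adjusted p-values from 0.0680 to 0.301.

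Acot13, also called Them2, is associated with mitochondria and is the binding partner of the phosphatidylcholine transfer protein Pctp. The gene (ENSMUSG00000006717, chr13:24817955-24831489, minus strand) was at 80.9, 54.1 and 60.8 CPM in WT 1, 2 and 3 and at 60.5, 68.3, 70.1 and 59.3 CPM in TET1 KO 1 to 4. All TET1 KO livers lay inside the WT range. On the log2 scale the groups differed by -0.02 (standard error 0.15, 95% interval -0.36 to 0.32, edgeR adjusted p = 0.957), and its sign turned in several alternatives, among them the fit without WT 1 (0.16). Pctp was at 73.1 ± 19.3 CPM (SD, n = 3) in WT and 61.6 ± 6.87 CPM (SD, n = 4) in TET1 KO, with a fitted log2 difference of -0.25 and a standard error of 0.18 (edgeR adjusted p = 0.385).

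Among the cytosolic members no difference passed the test. Acot1, the cytosolic long-chain enzyme of the type I cluster, was at 12.99, 23.9 and 7.17 CPM in WT 1, 2 and 3 and at 11.1, 6.13, 7.62 and 11.6 CPM in TET1 KO 1 to 4. The liver WT 2 alone stood apart, and WT 1 and WT 3 lay close to the TET1 KO livers. Its fitted log2 difference was -0.69 (standard error 0.35, 95% interval -1.46 to 0.08, edgeR adjusted p = 0.232), and without WT 2 it was -0.15 (edgeR adjusted p = 0.833). With the counts of Acot1 and Acot2 added together before the fit, to set aside how reads were divided between them, the log2 fold change came to -0.73 (edgeR adjusted p = 0.145). With the counts of Acot1 to Acot6 added, which Acot4 dominates, it was -1.19 (edgeR adjusted p = 0.0657).

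Acot12 (ENSMUSG00000021620, chr13:91741326-91786148, plus strand) encodes the liver acetyl-CoA hydrolase of the cytosol. It was at 86.0, 119 and 85.3 CPM in WT 1, 2 and 3 and at 77.9, 86.9, 78.8 and 92.1 CPM in TET1 KO 1 to 4. Apart from WT 2 the livers covered one range. The fitted log2 difference was -0.21 (standard error 0.15, 95% interval -0.54 to 0.12, edgeR adjusted p = 0.385). The antisense gene 4833422C13Rik, with 29 to 47 counts, overlaps 4.53% of its exon bases.

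Acot7 (ENSMUSG00000028937, chr4:152178100-152271855, plus strand), a cytosolic enzyme that is most abundant in brain, was at 20.5, 18.6 and 18.4 CPM in WT 1, 2 and 3 and at 16.5, 16.9, 17.1 and 21.99 CPM in TET1 KO 1 to 4. TET1 KO 1, 2 and 3 were below the WT livers and TET1 KO 4 was above them all. In the fit the groups differed by -0.08 on the log2 scale (standard error 0.15, 95% interval -0.40 to 0.24, edgeR adjusted p = 0.750). The neuron markers, which share this gene's main tissue, summed to 6.84 to 8.28 CPM in WT and 8.95 to 11.8 CPM in TET1 KO livers, without overlap. Syt1 made up most of this sum, at a mean of 6.50 CPM in WT and 8.59 CPM in TET1 KO livers. Of the 4 markers 2 were tested, Syt1 and Rbfox3, and each by itself overlapped between the groups. Neither was called by edgeR (edgeR adjusted p = 0.227 and 0.188) or by DESeq2. Snap25 was at 0 in all livers, and the part of these markers was not tested.

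The spread between livers differed among the members. Within WT the highest liver was 8.53 times the lowest for Acot3, 3.33 times for Acot1, 2.91 times for Acot4 and 2.00 times for Acot2. For the other 5 members this factor was 1.11 to 1.49 in WT livers. Within TET1 KO livers the factor was 2.76 for Acot3, 2.53 for Acot9 and at most 1.88 for the other members. WT 3 was the lowest WT liver for Acot1, Acot2, Acot3 and Acot4, and also for Acot7, Acot8 and Acot12. In Acot6, a type I gene outside the members, WT 1 was the lowest WT liver. WT 2 was the highest of all 7 livers for Acot1, Acot3, Acot4 and Acot12.

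Compared per kilobase of exons, Acot13 was the most abundant member in both groups. Its level was 90.5 ± 19.3 CPM per kilobase (SD, n = 3) in WT and 89.5 ± 7.53 (SD, n = 4) in TET1 KO livers, and its ranges did not overlap those of the next member. In WT livers Acot4 followed at 44.6 ± 21.1 CPM per kilobase and then Acot12 at 29.4 ± 5.92, with overlapping ranges. In TET1 KO livers Acot12 came next at 25.5 ± 2.06 CPM per kilobase and then Acot4 at 21.3 ± 3.57, again with overlapping ranges. Acot3 followed Acot12 in WT livers at 10.8 ± 8.47 CPM per kilobase and was next to last in TET1 KO livers at 1.56 ± 0.843. In WT livers the ranges of Acot3, Acot1, Acot7 and Acot8 overlapped from each one to the next. Acot9 was last in both groups, at 1.75 ± 0.297 and 0.895 ± 0.316 CPM per kilobase.

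The summed level of the 9 members was 209 ± 41.9 CPM per kilobase (SD, n = 3) in WT and 165 ± 5.68 (SD, n = 4) in TET1 KO livers. The sum was 233 in both WT 1 and WT 2 and 161 in WT 3, against 157 to 170 in the TET1 KO livers. The peroxisomal members made up 29.7%, 38.8% and 19.9% of it in WT 1, 2 and 3 and 17.0% to 21.1% in TET1 KO livers. The mitochondrial members, chiefly Acot13, made up 35.4% to 55.7% in WT and 51.6% to 60.7% in TET1 KO livers, and the cytosolic members 18.9% to 25.9% and 22.3% to 27.4%. In this make-up WT 3 resembled the TET1 KO livers, and the ranges of all 3 compartments overlapped between the groups. No test was made on these shares.

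**Figure D4:**
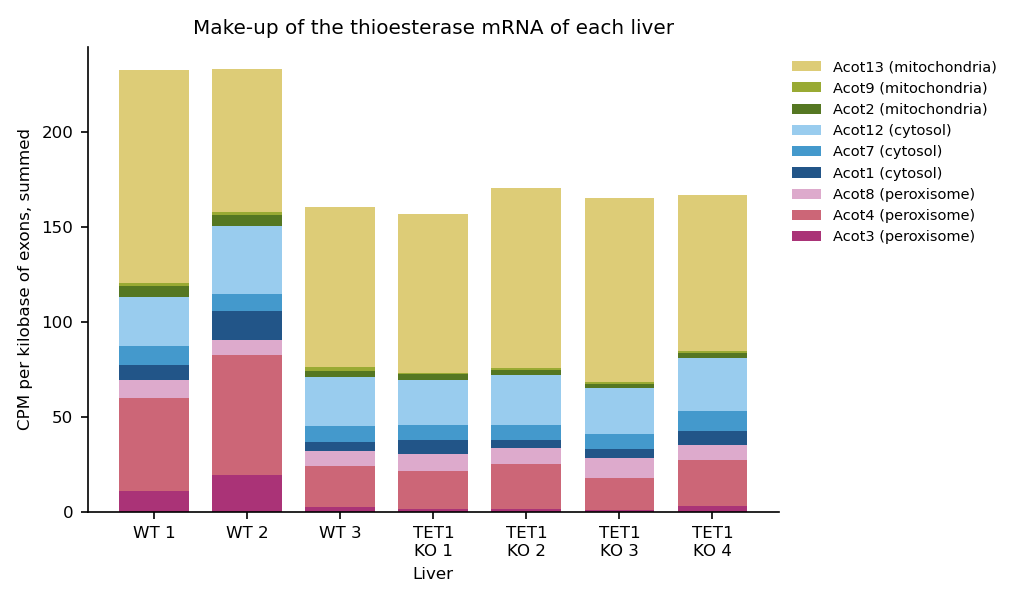
Stacked levels of the 9 members in CPM per kilobase of exons (y axis) for each liver (x axis), coloured by gene with its compartment in the key. WT 1 and WT 2 reach 233, with larger Acot3 and Acot4 segments than the other livers and, in WT 1, the largest Acot13 segment (112), whereas WT 3 and the TET1 KO livers sum to between 157 and 170.

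Of the other 8 thioesterase genes on the list, Acot11 was called lower in TET1 KO livers. Acot11, also called Them1, encodes the long-chain thioesterase induced by cold in brown fat. It was at 19.1, 25.0 and 20.7 CPM in WT 1, 2 and 3 and at 12.5, 8.66, 13.9 and 13.9 CPM in TET1 KO 1 to 4. No TET1 KO liver reached the WT range. The fitted log2 difference was -0.82 (standard error 0.18, edgeR adjusted p = 0.0490), close to the threshold. The antisense gene Fam151a, which overlaps 20.8% of its exon bases, had at most 1 count.

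Acot6, the last gene of the chromosome 12 cluster, had 1.99 ± 0.532 CPM (SD, n = 3) in WT and 0.870 ± 0.430 CPM (SD, n = 4) in TET1 KO livers, without overlap (log2 fold change -1.14, edgeR adjusted p = 0.106). Them4 had a log2 fold change of 0.32 (edgeR adjusted p = 0.213). Them6 had one of -0.25 (edgeR adjusted p = 0.405), also without overlap. In this list 3 of the 5 tested genes, Acot6, Acot11 and Them6, had all TET1 KO values below all WT values, beside 10.8% of all genes tested. Baat, which conjugates bile acids to amino acids, had 236 ± 14.3 CPM (SD, n = 3) in WT and 221 ± 45.5 CPM (SD, n = 4) in TET1 KO livers (log2 fold change -0.10, edgeR adjusted p = 0.749). Acot5, Acot10 and Them5, each with no more than 4 counts in a library, were not tested.

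In the pathways around the family, 9 lists with 94 tested genes were examined, Acot11 and its list included, and edgeR called 5 genes lower and 3 higher, or 8.51% of them beside 2.02% of all genes tested (1.15% lower and 0.874% higher). DESeq2 called 17 of these genes lower and 6 higher, beside 4.99% and 4.89% of the genes it tested. The lists were chosen with earlier results known, so these shares are a description. In the production of acyl-CoA, Slc27a1, a fatty acid transport protein with acyl-CoA synthetase activity, rose, from 5.67 ± 0.111 CPM in WT (SD, n = 3) to 9.52 ± 0.518 CPM in TET1 KO (SD, n = 4) (log2 fold change 0.75, edgeR adjusted p = 0.0351). It was the 1 gene edgeR called of 8 tested synthetases, whose median was -0.05, and DESeq2 also called Acsl5, a long-chain acyl-CoA synthetase, lower (log2 fold change -0.71, edgeR adjusted p = 0.0789, DESeq2 adjusted p = 0.0184). Of the 8 acyl-CoA binding genes edgeR called none (median -0.07), and DESeq2 called Scp2, a peroxisomal lipid transfer protein and thiolase, lower (log2 fold change -0.56, edgeR adjusted p = 0.126, DESeq2 adjusted p = 0.00533). In coenzyme A synthesis and breakdown, 1 of 11 genes was called, Vnn1, the pantetheinase, which was at 93.1 ± 25.6 CPM (SD, n = 3) in WT and 9.58 ± 4.19 CPM (SD, n = 4) in TET1 KO livers (edgeR adjusted p = 0.00224). In the acetyl-CoA and acetate list, 1 of 7 was called, the short-chain acyl-CoA synthetase Acss3, with a log2 fold change of -2.24 (edgeR adjusted p = 0.00879).

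In both β-oxidation lists edgeR made no call. Of 17 peroxisomal β-oxidation genes 14 were fitted lower, beside 48.9% of all genes tested, and the median log2 fold change was -0.34. The groups did not overlap in 7, all lower in TET1 KO livers, beside 10.8% of all genes tested. DESeq2 called 4 lower and 0 higher, beside 4.99% of the genes it tested that were lower, and the 4 were Ehhadh (DESeq2 adjusted p = 0.00731), Hsd17b4 (DESeq2 adjusted p = 0.00866), Crot (DESeq2 adjusted p = 0.00659) and Hacl1 (DESeq2 adjusted p = 0.00348). Of 20 mitochondrial β-oxidation and carnitine shuttle genes 15 were fitted lower and the median was -0.29. In this list 4 genes were lower and 2 higher without overlap, beside 10.8% and 11.7% of all genes tested, and DESeq2 called 3 lower and 2 higher, beside 4.99% and 4.89%. The 3 lower genes were Etfdh, the electron transfer flavoprotein dehydrogenase (log2 fold change -1.17, DESeq2 adjusted p = 0.00648), Hadha, a subunit of the trifunctional protein (-0.51, DESeq2 adjusted p = 0.0316), and Crat, carnitine acetyltransferase (-0.66, DESeq2 adjusted p = 0.0344). The 2 higher genes were Cpt1b, a carnitine palmitoyltransferase (log2 fold change 1.21, DESeq2 adjusted p = 0.00719), and Etfb, a subunit of the electron transfer flavoprotein (log2 fold change 0.56, DESeq2 adjusted p = 0.0176). In ω-oxidation, which makes the dicarboxylic acids that peroxisomes shorten, edgeR called Cyp4a14 lower and Cyp4a12a and Cyp4a12b higher, 3 of 7 genes. DESeq2 called these 3 in the same directions and also Aldh3a2, the fatty aldehyde dehydrogenase, lower (log2 fold change -0.79, edgeR adjusted p = 0.0883, DESeq2 adjusted p = 0.0210). Cyp4a14 was at 272, 628 and 146 CPM in WT 1, 2 and 3 and at 47.0, 60.7, 81.9 and 125 CPM in TET1 KO 1 to 4, with WT 2 highest and WT 3 closest to the TET1 KO livers (log2 fold change -2.15, edgeR adjusted p = 0.0382). Cyp4a12a and Cyp4a12b had log2 fold changes of 1.67 and 1.66 (edgeR adjusted p = 0.0199 and 0.0207), and reads may be split between these near-identical genes.

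The receptor gene Ppara was at 48.5 ± 15.8 CPM (SD, n = 3) in WT and 45.6 ± 12.01 CPM (SD, n = 4) in TET1 KO livers (log2 fold change -0.09, edgeR adjusted p = 0.830). The PPARα list of 11 genes held Ppara, its partner gene Rxra, the coactivator gene Ppargc1a and known targets. Of these, Plin2, which coats lipid droplets, was called lower (log2 fold change -1.01, edgeR adjusted p = 0.0382), and the median of the list was -0.23. DESeq2 called 3 genes of this list lower and 1 higher, beside 4.99% and 4.89% of all genes it tested. Besides Plin2, the lower genes were Fgf21, a fasting hormone (DESeq2 adjusted p = 0.00376), and Cidec, a lipid droplet protein (DESeq2 adjusted p = 0.0255), and the higher gene was Angptl4, an inhibitor of lipoprotein lipase (DESeq2 adjusted p = 0.0463).

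Acot3 was the called member, and the tested genes outside the family with the most similar pattern over the 7 livers were Cyp4a14, Cyp2c38, Slc16a5, Gprc5b and Cyp2a4. Similarity was measured as the root mean square difference in log2 CPM after each gene was centred on its mean over the livers, and it was 0.516 for Cyp4a14, 0.563 for Cyp2c38, 0.583 for Slc16a5, 0.594 for Gprc5b and 0.596 for Cyp2a4. Their log2 fold changes were -2.15, -2.26, -2.23, -2.36 and -1.97, and the first 4 were called in edgeR (adjusted p = 0.0382, 0.0151, 0.0221 and 0.0271), while Cyp2a4 was not (edgeR adjusted p = 0.0814). All 5 had WT 3 below WT 1 and WT 2. Genes ranked on these livers share the libraries and their depth, so the likeness is a description.

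**Figure D5:**
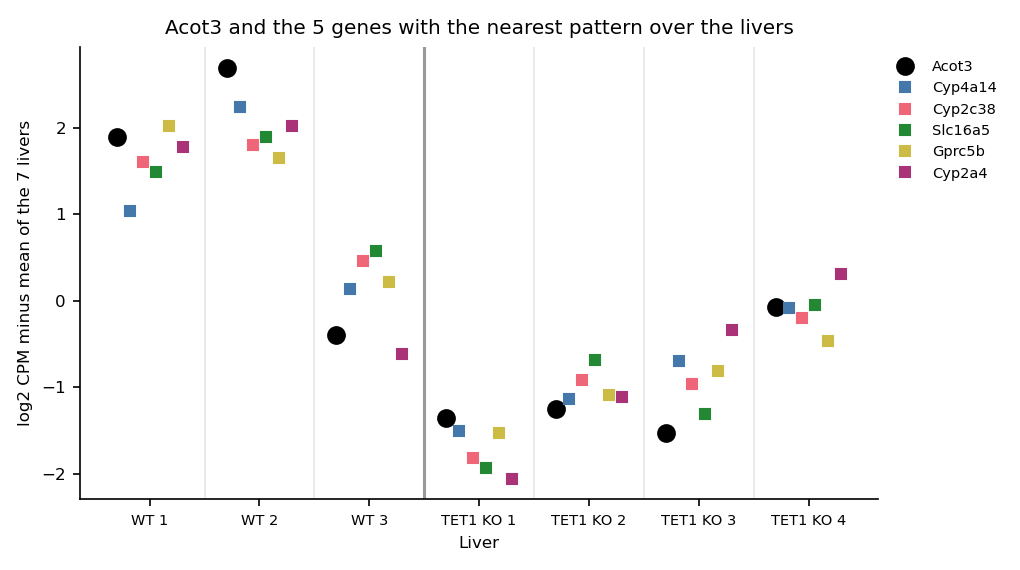
Level of Acot3 (black circles) and the 5 nearest genes (squares) in each liver (x axis), as log2 CPM minus the gene's mean over the 7 livers (y axis). WT 1 and WT 2 are high for all 6 genes, while WT 3 for Acot3 lies below the mean and close to TET1 KO 4.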

How the data were processed

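Liver RNA of 7 male mice, 3 WT and 4 TET1 KO, was sequenced by the authors. Each deposited table gives whole-number counts per gene for 1 library. Per the labels, the submitters' processing notes name Trimmomatic 0.36, GSNAP, featureCounts 1.5.3 and the build GRCm38. Libraries were made with a stranded dUTP kit after poly(A) selection or, alternatively, rRNA removal, and the strand and multi-mapping settings of the counting, which decide how reads of overlapping or near-identical genes are assigned, are not given in the sources used here.

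The 7 tables, each with 51431 entries, were joined by Ensembl gene ID. The 5 repeated entries had the same counts and were dropped, leaving 51426 genes, and 26 symbols that a spreadsheet had turned into dates in 1 table were read from the other tables. Libraries held 15005277 to 22746138 counts. The genes were filtered with filterByExpr (14754 kept), scaled by TMM and tested with edgeR 4.0.16 (R 4.3.3; quasi-likelihood test, Benjamini-Hochberg over all genes tested, adjusted p limit 0.05), with no covariate. Standard errors were derived from the F statistic of the test. Replicates of a group differed by more than sampling noise in every pair (chi-square per degree of freedom of at least 24.95). The alternatives were DESeq2 1.42.0, other scaling and filters, robust dispersions, summed paralogs, a replicate block and leaving out each liver. On simulated counts for 14754 genes with 200 genes changed by a log2 fold change of 2 between TET1 KO and WT, edgeR recovered 199 with 12 false calls and DESeq2 200 with 26. The changed genes were drawn from those with a mean above 5 CPM, so recovery of smaller changes or at lower levels was not measured.

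Levels per kilobase used the exon lengths of GENCODE M1, and transcript sequences came from the same release. Coordinates and promoter windows came from RefSeq tables of GRCm38.p6, in which 8 of the 9 members had a promoter window. Transcripts were aligned with Biopython 1.88. The members and lists were chosen with earlier results of these data known. The genes named are the 9 members, the other thioesterase genes, Ppara, Pctp, every gene of the lists with an adjusted p under 0.05 and the 5 genes nearest in pattern to a called member, and the other list and marker genes named for a DESeq2 call were added after their values were seen.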

Additional observations from a re-analysis of the deposited data

Results flagged for a closer look

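In the 4 TET1 KO livers, 21 items (genes, shares of the summed level and the sum itself) were examined for a single liver far from the others, by the gap to the nearest liver divided by the whole range of the 4 livers. For 3 of them the share was above Dixon's 95% critical value for 4 samples, and chance flags about 1 in 20 groups, or 5%. It was 0.876 for Acot3 and 0.899 for Acot7, both because TET1 KO 4 was higher than the other TET1 KO livers, at 7.33 CPM for Acot3 and 21.99 CPM for Acot7. It was 0.836 for Baat, because TET1 KO 1 was lower, at 153 CPM.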

How the results depend on the processing

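The number of members called lower was 1 in the reported fit, 4 with DESeq2 or with an adjusted p under 0.1, 2 without a filter on low counts (Acot3 and Acot4), 0 with robust dispersions, 0 with the counts of Acot1 to Acot6 summed, and 0 to 3 with each liver left out. Over all genes the 298 calls became 1400 with DESeq2, 592 without the filter and 38 (without WT 2) to 891 (without TET1 KO 4) with each liver left out, and also fell to 187, 104 and 79 without TET1 KO 1, 2 and 3. Acot3 kept its direction in all 16 alternatives and its call in 9. Its edgeR adjusted p was 0.0868 with robust dispersions at the same -2.78, and its log2 fold change ran from -3.28 to -2.08 with each liver left out (edgeR adjusted p from 0.00279 to 0.209). Summed over Acot1 to Acot6, the log2 fold change was -1.19 (edgeR adjusted p = 0.0657). Acot2, Acot4 and Acot9 passed in DESeq2, with log2 fold changes of -0.80, -1.09 and -0.97 (DESeq2 adjusted p = 0.0446, 0.00772 and 0.0390), and Acot4 also without the filter (-1.10, edgeR adjusted p = 0.0413). With each liver left out Acot2 ran from -1.06 to -0.63 and Acot4 from -1.42 to -0.74, and both passed in the fit without WT 3. Acot13 turned from -0.02 to positive in 4 alternatives, and ran from -0.14 to 0.16 with each liver left out. Acot1, Acot7, Acot8 and Acot12 stayed uncalled with the same sign in all 16 alternatives each. The cause of these shifts was not tested.

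The replicate numbers did not pair the livers: deviations from the group means had correlations of 0.209, -0.123 and -0.0964 for numbers 1, 2 and 3. With the replicate number as a block, in which TET1 KO 4 has no partner, 1326 genes and 2 members (Acot3 and Acot4) were called, Acot4 at -1.02 (edgeR adjusted p = 0.0293), and Acot13 was at 0.041.

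Depth limits Acot9, at 16 to 94 counts per library, and Acot6, at 4 to 62, while Acot5 and Acot10 were at or under 3 counts, where no level can be set. Leaving out any one of WT 1, WT 2 or TET1 KO 1, 2 or 3 ended the call of Acot3.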
